A study of Rattus norvegicus with 6 samples.

Results

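A small set of interleukin-1 (IL-1) family genes was followed cell type by cell type in the rat brain after infarction. The members were Il33, Il1rl1, Il1rap, Il1r1, Il1b and Il1rn, chosen by gene symbol, and all 6 were found among the 30560 genes of the count matrices. Single nuclei had been sequenced from male Wistar rats aged 12 weeks, 48 h after permanent middle cerebral artery occlusion (MCAO) or a sham operation, all rats being wild type by the labels. The Sham L and Sham R libraries were the left and right hemispheres of the same 4 Sham-operated rats. MCAO rats were split by infarct size into moderate (mMCAO, 3 rats) and severe (sMCAO, 4 rats), and each gave a library of the infarcted hemisphere (ipsi) and a library of the opposite hemisphere (contra). Every library pooled its rats, so that each group (Sham, MCAO contra, MCAO ipsi) held 2 libraries, and the 2 MCAO libraries of a group also differed in severity.

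IL-33 is a nuclear cytokine that is set free when a cell is damaged and then acts as an alarm signal. It binds ST2, the product of Il1rl1, and IL-1β, the product of Il1b, binds the type 1 IL-1 receptor encoded by Il1r1. Both receptors need the shared co-receptor IL-1RAP (Il1rap) to signal, through MyD88 and IRAK kinases to NF-κB, while Il1rn encodes an antagonist that occupies the IL-1 receptor without recruiting the co-receptor. In the rodent brain IL-33 has been described mainly in oligodendrocyte lineage cells and astrocytes, ST2 in microglia and other immune cells, and the type 1 IL-1 receptor in endothelium.

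The 6 libraries held 8774 to 14508 nuclei each, 73826 in all, of which 73649 passed limits on UMIs (unique molecular identifiers, 1 per captured RNA molecule), genes and mitochondrial share. Nuclei were assigned to classes by their UMIs of marker genes, and are called, for example, OPC-like (OPC, oligodendrocyte precursor cell). The marker gate left 33.8% to 46.5% of the passing nuclei of a library without a class. Summed over a class, its own marker list had the highest level of the cell type lists in the 7 classes checked in every library, except in the 23 myeloid-like nuclei of Sham L, where the oligodendrocyte list (4739 CPM, UMIs scaled to 1000000 per class and library) exceeded the myeloid list (4108 CPM). The gate used these same lists, so this order was largely set in advance and is no independent check of the classes. Mural, fibroblast, medium spiny neuron and other GABAergic neuron classes were not checked in this way. Of 70713 distinct cell barcodes, 4.27% occurred in more than 1 library.

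The members were very unequally covered. Over all libraries Il1rap had 19401 UMIs and Il1r1 3369, whereas Il33 had 546, Il1rl1 197, Il1rn 58 and Il1b 26. Because the library kit reads the 5′ end of transcripts and UMIs were counted per gene, soluble and membrane forms of Il1rl1 and Il1rap could not be separated. All intervals given here are exact 95% intervals for counting error only. Since the genes were chosen with results of these data known, their differences between groups are described, and no p-value is given for them.

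The promoter windows of the members are shown because Il33 and Il1rap both had their highest level over the classes and libraries in OPC-like nuclei of sMCAO ipsi, and Il1r1 in endothelial-like nuclei of that library. They are RefSeq windows of the GRCr8 build, a later build than that of the count matrices, from 250 bases before to 50 bases after a transcript start. Capitals mark CG dinucleotides. The first start of Il33 lies at chr1:237115323-237115622 on the plus strand and the second at chr1:237134696-237134995 on the same strand.
Il33 first start: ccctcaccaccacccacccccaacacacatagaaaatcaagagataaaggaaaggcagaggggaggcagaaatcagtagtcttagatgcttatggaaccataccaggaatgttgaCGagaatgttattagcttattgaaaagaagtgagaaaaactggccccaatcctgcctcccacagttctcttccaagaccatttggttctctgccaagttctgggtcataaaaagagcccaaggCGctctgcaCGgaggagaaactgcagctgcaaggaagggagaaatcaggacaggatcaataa
Il33 second start: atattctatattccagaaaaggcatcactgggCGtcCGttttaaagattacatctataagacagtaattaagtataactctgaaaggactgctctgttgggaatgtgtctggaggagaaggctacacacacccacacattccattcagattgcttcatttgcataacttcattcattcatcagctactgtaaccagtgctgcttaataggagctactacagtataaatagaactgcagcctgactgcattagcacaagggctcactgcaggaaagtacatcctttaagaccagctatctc
Of the 2 overlapping windows of Il1rap, the one printed lies at chr11:87704212-87704511 on the minus strand, and the window of Il1r1 at chr9:50034133-50034432 on the plus strand.
Il1rap start: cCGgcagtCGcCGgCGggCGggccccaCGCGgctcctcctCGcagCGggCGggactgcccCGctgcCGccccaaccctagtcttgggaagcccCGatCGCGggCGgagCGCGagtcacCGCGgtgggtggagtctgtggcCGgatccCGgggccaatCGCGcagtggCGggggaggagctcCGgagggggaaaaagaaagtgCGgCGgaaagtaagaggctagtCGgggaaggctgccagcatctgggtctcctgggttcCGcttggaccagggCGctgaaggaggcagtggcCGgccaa
Il1r1 start: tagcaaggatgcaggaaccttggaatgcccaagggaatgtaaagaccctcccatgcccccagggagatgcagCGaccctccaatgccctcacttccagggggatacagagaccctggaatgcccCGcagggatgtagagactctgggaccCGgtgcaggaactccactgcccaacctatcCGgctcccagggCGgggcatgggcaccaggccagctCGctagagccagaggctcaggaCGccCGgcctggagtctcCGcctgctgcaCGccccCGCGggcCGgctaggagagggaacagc
The 2 windows of Il33 held 3 and 2 CG dinucleotides at 47% and 41% GC, against 32 at 71.7% GC for Il1rap and 13 at 65.3% GC for Il1r1. The median over all 33469 promoter windows was 7 CG dinucleotides and 51.7% GC, so that Il33 lay below it, and Il1rap and Il1r1 above it. The letters TGANTCA (AP-1) and TTCNNNGAA (STAT) and the degenerate NF-κB consensus, read on both strands, occurred in 7.33%, 8.87% and 4.18% of all windows. In the 8 windows of the members the NF-κB consensus was found at 1 site of Il1rap, which lies in both of its overlapping windows, and once at Il1r1. The other letters were not found.

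Il33, the ligand of ST2, had its highest level in OPC-like nuclei of infarcted tissue. In Sham L 1 Il33 UMI was found in 144 OPC-like nuclei and in Sham R none in 91. The contralateral libraries held 3 UMIs in these nuclei for mMCAO (8.75 CPM) and 13 for sMCAO (49.0 CPM, interval 26.1 to 83.8). In mMCAO ipsi there were 26 UMIs (69.3 CPM, interval 45.3 to 101) and in sMCAO ipsi 71 (124 CPM, interval 96.5 to 156). Both infarcted hemispheres thus lay above both contralateral and both Sham libraries, although the intervals of sMCAO contra and mMCAO ipsi overlapped.

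Pooled over libraries, Il33 in OPC-like nuclei was 28.3-fold higher in MCAO ipsi than in Sham (97 against 1 UMI, interval 4.95 to 1128). It was 3.88-fold higher in MCAO ipsi than in MCAO contra (97 against 16 UMIs, interval 2.27 to 7.06), and 7.28-fold higher in MCAO contra than in Sham (interval 1.13 to 305). The fitted log2 difference between MCAO ipsi and Sham was 4.56 ± 0.94 (SE, n = 2 libraries a group). It was 8.005 without Sham L, the Sham library with the single UMI, and this fitted value depends on the prior count. Between severities, sMCAO ipsi exceeded mMCAO ipsi by 1.78-fold (interval 1.12 to 2.91). This ratio compares 1 library with 1 library, so it has no replicate check. Its UMIs came from only 29 and 11 nuclei, and the interval takes every UMI as independent, so that it is too narrow. The ratio was 1.52 without the deepest 5% of nuclei, 2.03 with a looser gate and 2.85 with a stricter gate. The stricter gate kept only 10 of the 29 nuclei with Il33 in sMCAO ipsi and 5 of the 11 in mMCAO ipsi. Of all OPC-like nuclei it kept 138 of 274 and 172 of 316.

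Il33 was carried by few OPC-like nuclei. An Il33 UMI was detected in 1 and 0 of these nuclei in the Sham libraries and in 3 and 9 on the contralateral side. The infarcted side had 11 such nuclei of 316 (3.48%) for mMCAO and 29 of 274 (10.6%) for sMCAO. Up to 11 Il33 UMIs came from 1 nucleus. Nuclei of sMCAO ipsi were also deeper, with a median of 1688 UMIs in the OPC-like class against 648 in Sham R.

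After thinning every nucleus to 1000 UMIs and leaving out shallower ones, the share was 0 of 41 in Sham L, which allows up to 7.32%, and 0 of 22 in Sham R, which allows up to 13.6%. On the contralateral side it was 1.08% for mMCAO and 5.88% for sMCAO, and on the infarcted side 4.32% and 7.72% (20 of 259, interval 4.78 to 11.7). At this depth the share could not be told apart between sMCAO contra and the infarcted hemispheres, and the Sham shares were not resolved. Glutamatergic neuron-like nuclei, which were much deeper before thinning (median 8175 UMIs in sMCAO ipsi), had a thinned share of 0.134% in mMCAO ipsi, 0.866% in sMCAO ipsi and 0 in the other libraries.

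**Figure D1:**
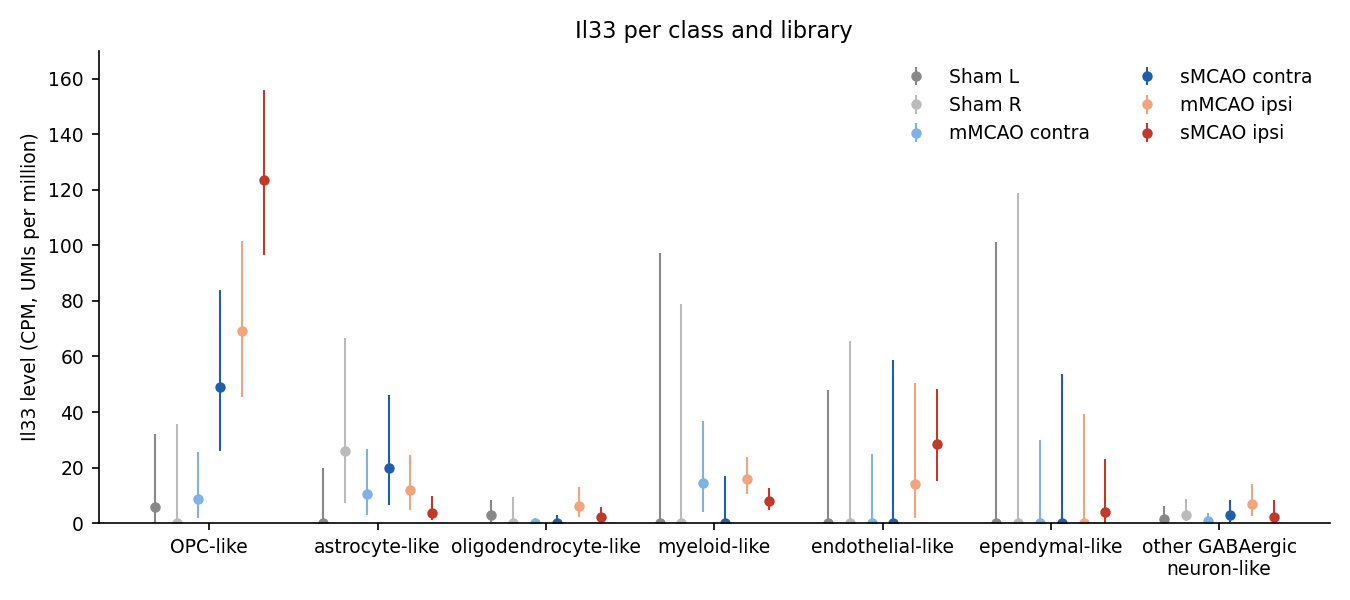
Il33 level in CPM (UMIs scaled to 1000000 per class and library, vertical axis) in each class and library, with exact 95% intervals for counting error. In OPC-like nuclei the 2 infarcted hemispheres stand at 69.3 and 124 CPM and the 2 Sham libraries at 0 and 5.78 CPM.

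Astrocyte-like nuclei showed no such order. They held 0, 4, 4, 5, 7 and 4 Il33 UMIs in Sham L, Sham R, mMCAO contra, sMCAO contra, mMCAO ipsi and sMCAO ipsi, and the ratio of MCAO ipsi to Sham was 0.569 (interval 0.168 to 2.45). Oligodendrocyte-like nuclei held 3 UMIs in Sham L, 6 in mMCAO ipsi, 4 in sMCAO ipsi and 0 in the other 3 libraries. In sMCAO ipsi the order of levels ran from OPC-like (124 CPM) to endothelial-like (28.3 CPM, 13 UMIs), fibroblast-like (16.4 CPM, 6 UMIs) and myeloid-like nuclei (7.997 CPM, 19 UMIs). The intervals of OPC-like (from 96.5) and endothelial-like nuclei (up to 48.4) did not overlap there, while those of endothelial-like and fibroblast-like nuclei did.

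Myeloid-like nuclei of infarcted tissue held 25 Il33 UMIs in mMCAO ipsi and 19 in sMCAO ipsi, never more than 1 in a nucleus. Their level was lower in the severe than in the moderate infarct (ratio 0.498, interval 0.259 to 0.941), the opposite order to that in OPC-like nuclei. Myeloid-like nuclei with more microglia UMIs were at 16.5 and 13.1 CPM in mMCAO ipsi and sMCAO ipsi. Those with more macrophage UMIs (226 and 857 nuclei) were at 0 and 3.70 CPM, and those with as many or none at 29.8 and 6.70 CPM. The intervals of the 2 infarcts overlapped in each of these sets. The part of class makeup in the ratio was not tested. Endothelial-like nuclei had no Il33 UMI in the Sham and contralateral libraries, 2 in mMCAO ipsi and 13 in sMCAO ipsi. With UMIs pooled, the exact lower limit of the ratio of MCAO ipsi to Sham was 0.793. A difference from Sham was thus not resolved in this class. Against MCAO contra the same limit was 1.25. Glutamatergic neuron-like nuclei held 10 UMIs in mMCAO ipsi, of which 7 came from 1 nucleus. All neuronal classes together held 33 of the 157 Il33 UMIs of mMCAO ipsi (21.0%), beside 26 in OPC-like nuclei (16.6%). In sMCAO ipsi OPC-like nuclei held 71 of 294 (24.1%) and neuronal classes 24 (8.16%). Nuclei without a class held 36.3% and 51.7% in these libraries.

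Cell cycle transcripts in the OPC-like nuclei were at 279 to 295 CPM in Sham, 364 and 603 CPM in MCAO contra, and 1921 and 2402 CPM in MCAO ipsi. In sMCAO ipsi, 22 of 29 OPC-like nuclei with an Il33 UMI (75.9%, interval 56.5 to 89.7) had a UMI of the cell cycle list, against 115 of 245 without (46.9%), but their median depths were 2467 and 1668 UMIs. At 1000 UMIs per nucleus the shares were 55.0% (11 of 20, interval 31.5 to 76.9) and 42.7% (102 of 239, interval 36.3 to 49.2), which overlapped. In mMCAO ipsi the thinned shares were 4 of 6 and 75 of 133 nuclei. A difference in cell cycle transcripts between OPC-like nuclei with and without Il33 was not detectable at this depth.

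Markers of other cell types in the OPC-like nuclei are given beside these values. The OPC list ranged from 9568 to 15381 CPM over the libraries, the astrocyte list from 1533 to 3339 CPM with the lowest value in sMCAO ipsi, and the endothelial list from 8.70 to 30.2 CPM. The list for other GABAergic neurons was at 5608 to 9205 CPM in this class in every library, including Sham. Macrophage transcripts were at 0 CPM in both Sham libraries and at 102.7 CPM in sMCAO ipsi. The part of these transcripts in the Il33 values was not tested.

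In the infarcted hemispheres Il1rl1, the receptor for IL-33, was found mainly in myeloid-like nuclei. These held 63.5% of the 52 Il1rl1 UMIs in mMCAO ipsi and 84.2% of the 76 in sMCAO ipsi. In Sham L, Sham R and sMCAO contra most Il1rl1 UMIs lay outside this class. OPC-like nuclei had 1 Il1rl1 UMI in all 6 libraries together, astrocyte-like nuclei 1, and endothelial-like nuclei none. Fibroblast-like nuclei held 4 UMIs, all in sMCAO ipsi, and oligodendrocyte-like nuclei 5, of which 4 were in Sham.

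Per UMI of the class, Il1rl1 was not higher in the infarcted than in the contralateral hemispheres, and its level in Sham was not resolved at this depth. Over all nuclei, Sham L, Sham R, mMCAO contra and sMCAO contra held 8, 11, 34 and 16 Il1rl1 UMIs. Myeloid-like nuclei held 1 and 0 of these in Sham L and Sham R, and 19 and 6 in mMCAO contra and sMCAO contra. In mMCAO ipsi and sMCAO ipsi they held 33 and 64. The corresponding levels were 26.3 and 0 CPM, 68.2 and 27.8 CPM, and 21.2 and 26.9 CPM. The groups overlapped, with mMCAO contra highest and sMCAO contra close to both infarcted hemispheres. Pooled, the ratio of MCAO ipsi to MCAO contra was 0.488 (interval 0.312 to 0.791), and the ratio between the severities in the infarct was 1.27 (interval 0.822 to 1.996). Against Sham the ratio was 2.09 with an interval of 0.366 to 83.3, since the myeloid-like nuclei of Sham held only 1 UMI.

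The number of myeloid-like nuclei differed far more than the level per UMI. They numbered 23 and 35 in Sham, 238 and 161 in MCAO contra, and 1093 and 1693 in MCAO ipsi. The study names the sparse myeloid cells of tissue without a lesion as a limit of its nuclei isolation, which tends to miss immune cells. It still reads their capture from infarcts as a large rise in abundance. The numbers here are captured nuclei and do not measure abundance by themselves. An Il1rl1 UMI was detected in 18 (7.56%) and 6 (3.73%) of the myeloid-like nuclei in the contralateral libraries and in 33 (3.02%) and 50 (2.95%) in the infarcted ones. Thinned to 1000 UMIs, the shares were 2.70%, 1.64%, 2.35% and 2.67% in that order, and 0 in glutamatergic neuron-like nuclei of every library.

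Within the myeloid-like class, Il1rl1 was read separately in nuclei with more UMIs of the microglia list and in nuclei with more UMIs of the macrophage list. In sMCAO ipsi it was at 51.3 CPM (51 UMIs in 571 nuclei, interval 38.2 to 67.4) in the former and 8.31 CPM (9 UMIs in 857 nuclei, interval 3.80 to 15.8) in the latter. In mMCAO ipsi the values were 20.6 CPM (20 UMIs, interval 12.6 to 31.8) and 10.6 CPM (3 UMIs, interval 2.19 to 31.1), which overlapped. The contralateral libraries had 15 and 5 Il1rl1 UMIs in nuclei with more microglia transcripts and none in the 18 and 25 nuclei with more macrophage transcripts, which allows up to 186 and 102 CPM there, above the levels in the other nuclei. Nuclei with as many UMIs of both lists, or none, held Il1rl1 at 33.1 CPM in mMCAO ipsi (10 UMIs), 13.4 CPM in sMCAO ipsi (4 UMIs), 96.3 CPM in mMCAO contra (4 UMIs) and 21.8 CPM in sMCAO contra (1 UMI).

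The makeup of the myeloid-like class also differed between libraries. The macrophage list was at 79.0 and 107 CPM in Sham L and Sham R, at 215 and 407 CPM in MCAO contra and at 560 and 1596 CPM in MCAO ipsi, whereas the microglia list ranged from 658 to 1324 CPM without separating the groups. The part of this makeup in the class levels of Il1rl1 was not tested. Mast cells and some lymphocytes can carry ST2. The mast cell list had at most 21 UMIs in the myeloid-like nuclei of a library, with Cpa3, Cma1 and Ms4a2 at 0 in all, and the lymphocyte list was at 148 to 290 CPM without separating the groups, with Cd79a and Ms4a1 at 0 in all. Of that list, the T cell genes Cd3e, Cd3g and Cd2 were at 0 in both Sham libraries and in mMCAO contra, Cd3g and Cd2 also in sMCAO contra, and all 3 were detected in both infarcted libraries. The part of lymphocytes in the Il1rl1 result was not tested.

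**Figure D2:**
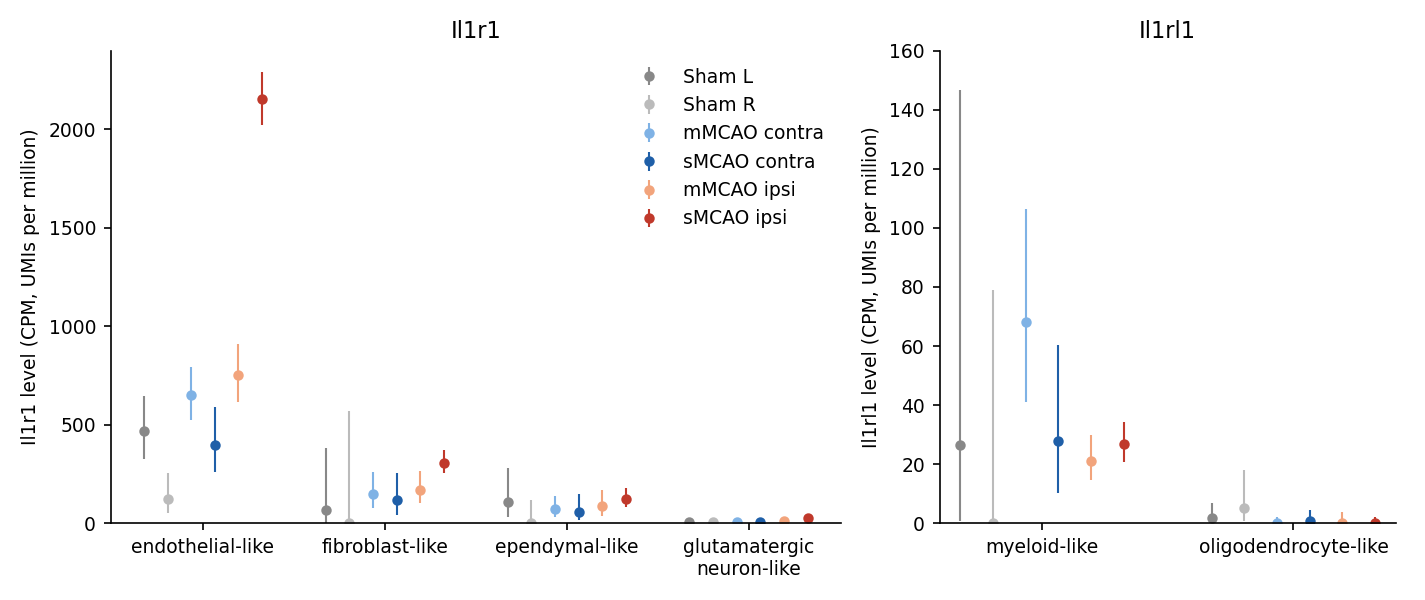
Levels of Il1r1 (left) and Il1rl1 (right) in CPM (UMIs scaled to 1000000 per class and library, vertical axes) by class and library, with exact 95% intervals for counting error. Il1r1 reaches 2154 CPM in endothelial-like nuclei of sMCAO ipsi, and Il1rl1 in myeloid-like nuclei is highest in mMCAO contra at 68.2 CPM.

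Il1rap, the shared co-receptor, was detected in every class tested and was higher in the 3 macroglial classes of infarcted tissue. In OPC-like nuclei it was at 116 and 96.4 CPM in Sham L and Sham R, 222 and 143 CPM in mMCAO contra and sMCAO contra, and 466 and 811 CPM in mMCAO ipsi and sMCAO ipsi (20, 10, 76, 38, 175 and 466 UMIs). The point values of the 3 groups did not overlap in this class. Sham L (116 CPM) and sMCAO contra (143 CPM) were close, however, and their counting intervals overlapped. The fitted log2 difference from Sham was 2.497 ± 0.317 for MCAO ipsi and 0.78 ± 0.36 for MCAO contra, and that of MCAO ipsi from MCAO contra was 1.71 ± 0.25 (SE, n = 2 libraries a group).

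In astrocyte-like nuclei Il1rap was at 64.1 and 71.6 CPM in Sham, 39.2 and 35.5 CPM in MCAO contra, and 214 and 262 CPM in MCAO ipsi. Here MCAO contra lay below Sham (fitted log2 difference −0.87 ± 0.34), unlike in OPC-like nuclei, and MCAO ipsi lay above both (1.75 ± 0.26 from Sham and 2.62 ± 0.26 from MCAO contra). Oligodendrocyte-like nuclei had the highest level of the tested classes in Sham, at 304 and 253 CPM, and reached 374 and 397 CPM in MCAO contra and 522 and 599 CPM in MCAO ipsi. Their difference from Sham was smaller, at 0.98 ± 0.16 for MCAO ipsi and 0.48 ± 0.16 for MCAO contra.

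The fitted differences of MCAO ipsi from Sham were below 0 in the neuronal subtypes and in myeloid-like nuclei, but only that of other GABAergic neuron-like nuclei exceeded its SE. Glutamatergic neuron-like nuclei ranged from 58.6 to 80.2 CPM over the 6 libraries, with a fitted log2 difference of −0.13 ± 0.16 between MCAO ipsi and Sham. Medium spiny neuron-like nuclei ranged from 30.6 to 54.1 CPM (−0.06 ± 0.18) and other GABAergic neuron-like nuclei from 88.1 to 133 CPM (−0.51 ± 0.16). Myeloid-like nuclei ranged from 69.4 to 132 CPM (−0.34 ± 0.48) and endothelial-like nuclei from 35.5 to 118 CPM on 2 to 29 UMIs (0.34 ± 0.71). Neurons without an assigned subtype, the neuronal class with most nuclei, were at 56.9 and 58.1 CPM in Sham, 51.8 and 48.1 CPM in MCAO contra, and 69.5 and 79.9 CPM in MCAO ipsi. Their ratio of MCAO ipsi to Sham was 1.28 (interval 1.17 to 1.39) and to MCAO contra 1.46 (interval 1.34 to 1.59). Medium spiny neuron-like nuclei were also higher in MCAO ipsi than in MCAO contra, by 1.38-fold (interval 1.12 to 1.68), though not than in Sham (ratio 1.01, interval 0.828 to 1.22).

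The severe infarct exceeded the moderate infarct in Il1rap in OPC-like nuclei by 1.74-fold (interval 1.46 to 2.08) and in oligodendrocyte-like nuclei by 1.15-fold (interval 1.03 to 1.28). In astrocyte-like nuclei the ratio was 1.22 (interval 0.988 to 1.52). Myeloid-like nuclei had the opposite order (0.707, interval 0.568 to 0.879), as did OPC-like nuclei of the contralateral hemispheres, where sMCAO was below mMCAO (0.646, interval 0.426 to 0.966). Each of these ratios compares 1 library with 1 library, so it has no replicate check.

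The share of OPC-like nuclei with an Il1rap UMI was 11.1% and 8.79% in Sham, 22.3% and 14.6% in MCAO contra, and 32.0% and 51.5% in MCAO ipsi. Thinned to 1000 UMIs it was 14.6% and 4.55% in Sham, 37 of 185 nuclei and 13.7% in MCAO contra, and 38.1% and 40.9% in MCAO ipsi, so that the gap between the 2 infarcts narrowed, both infarcts stayed above the other libraries, and sMCAO contra fell below Sham L. The thinned share in astrocyte-like nuclei was 17.2% and 15.9% in MCAO ipsi and 2.94% to 8.33% elsewhere. In oligodendrocyte-like nuclei it was 29.9% and 41.2% in MCAO ipsi and 19.3% to 28.6% elsewhere, so that mMCAO ipsi was close to the highest of these, and in glutamatergic neuron-like nuclei 5.19% to 8.72% over all libraries.

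**Figure D3:**
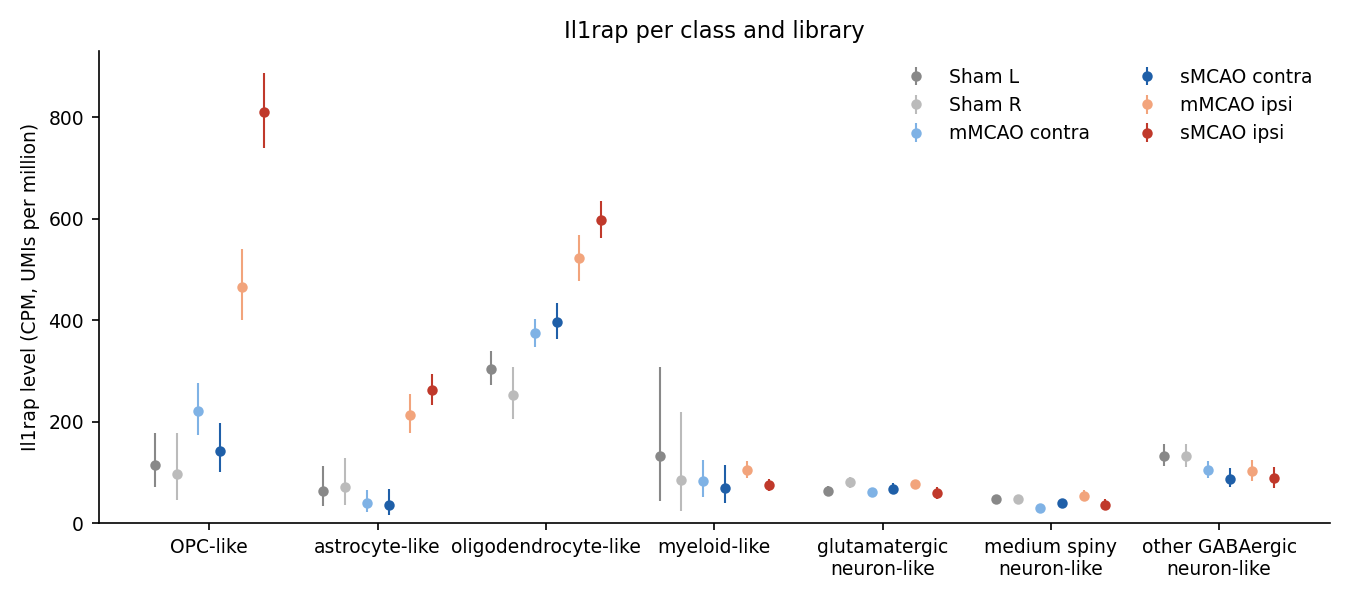
Il1rap level in CPM (UMIs scaled to 1000000 per class and library, vertical axis) by class and library, with exact 95% intervals for counting error. The infarcted hemispheres are highest in OPC-like (466 and 811 CPM), astrocyte-like (214 and 262 CPM) and oligodendrocyte-like nuclei (522 and 599 CPM), while glutamatergic neuron-like nuclei stay between 58.6 and 80.2 CPM.

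Il33 and Il1rap were counted in the same OPC-like nuclei. Of the nuclei with an Il33 UMI, 9 of 11 in mMCAO ipsi and 21 of 29 in sMCAO ipsi also had an Il1rap UMI, against 101 of 316 and 141 of 274 among all OPC-like nuclei of these libraries. The nuclei with Il33 were deeper in both libraries, with a median of 1355 against 946 UMIs in mMCAO ipsi and the medians given above in sMCAO ipsi, and the part of depth in this overlap was not tested. Il1rl1 and Il1rap shared 5 of the 33 myeloid-like nuclei with an Il1rl1 UMI in mMCAO ipsi and 5 of the 50 in sMCAO ipsi.

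Il1r1, the signalling receptor for IL-1, was highest in endothelial-like nuclei. There it was at 468 and 124 CPM in Sham L and Sham R (36 and 7 UMIs), 649 and 398 CPM in mMCAO contra and sMCAO contra (96 and 25 UMIs), and 752 and 2154 CPM in mMCAO ipsi and sMCAO ipsi (108 and 989 UMIs). Sham L overlapped with the contralateral libraries, and mMCAO ipsi (interval 617 to 908) overlapped with mMCAO contra (interval 526 to 793). The interval of sMCAO ipsi (2022 to 2293) lay above those of all other libraries, and that of Sham R (up to 256) lay below them.

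The fitted log2 difference in endothelial-like nuclei was 2.22 ± 0.66 between MCAO ipsi and Sham, and 1.43 ± 0.62 between MCAO ipsi and MCAO contra (SE, n = 2 libraries a group). The value against Sham rested on 2 libraries in particular: it was 3.50 without Sham L and 1.27 without sMCAO ipsi. It was 3.38 without the deepest 5% of nuclei in each class and library. The severe infarct exceeded the moderate infarct by 2.86-fold (interval 2.35 to 3.53), but the 2 Sham libraries also differed, Sham R being at 0.266 of Sham L (interval 0.0998 to 0.606).

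An Il1r1 UMI was detected in 15.4% and 11.8% of endothelial-like nuclei in Sham, 42 of 88 and 12 of 48 nuclei in MCAO contra, and 34.3% and 52.1% in MCAO ipsi. Thinned to 1000 UMIs, these shares were 15.4% and 0 (0 of 18 nuclei, which allows up to 16.7%), 21.3% and 19.2%, and 25.5% and 53.2%, sMCAO ipsi being highest. Oligodendrocyte-like nuclei, a class not known for this receptor, had a thinned share of 0 to 1.20%. The endothelial marker list in this class was at 7885 to 12192 CPM and the mural list at 3179 to 4558 CPM without separating the groups, whereas the myeloid list was at 143 to 266 CPM in Sham and MCAO contra and at 1121 and 514 CPM in mMCAO ipsi and sMCAO ipsi. Myeloid-like nuclei themselves held Il1r1 at 19.9 and 10.5 CPM in these libraries.

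The infarcted hemispheres differed in where Il1r1 was found. Endothelial-like nuclei held 13.5% of the library's Il1r1 UMIs in mMCAO ipsi and 54.2% in sMCAO ipsi, with 102 and 265 endothelial-like nuclei. Nuclei without a class held 58.1% and 28.5% of these UMIs, and neuronal classes 18.1% and 6.03%. The gate left 45.3% and 33.8% of the nuclei of these libraries without a class, and its part in this difference was not tested. Fibroblast-like nuclei of mMCAO ipsi and sMCAO ipsi were at 169 CPM (19 UMIs) and 308 CPM (113 UMIs), a ratio of 1.82 between severities (interval 1.11 to 3.13). Mural-like nuclei held 13 UMIs in each infarct (369 and 184 CPM) and at most 1 in each other library. They numbered 28 and 58 in mMCAO ipsi and sMCAO ipsi, but only 13 and 11 in Sham and 15 and 6 in MCAO contra. So few nuclei limit any comparison of this class with the infarcts. Mural-like nuclei exceeded fibroblast-like nuclei by level in mMCAO ipsi and not in sMCAO ipsi, and ependymal-like nuclei ranged from 0 to 124 CPM. Il1r1 and Il1rap UMIs occurred together in 3 of the 35 endothelial-like nuclei with Il1r1 in mMCAO ipsi and in 20 of the 138 in sMCAO ipsi.

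**Figure D4:**
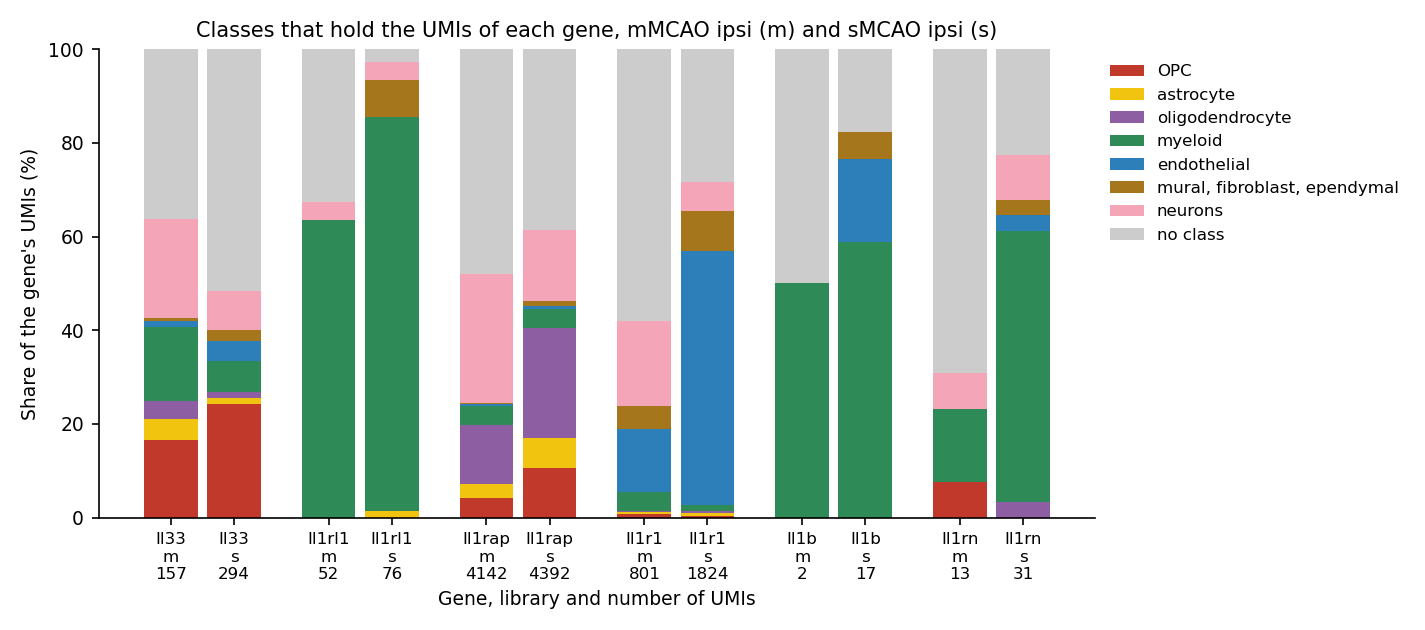
Share of each gene's UMIs (vertical axis, percent) held by each class in the mMCAO ipsi and sMCAO ipsi libraries, with the gene's number of UMIs in the library under each bar. Myeloid-like nuclei hold 63.5% and 84.2% of Il1rl1 UMIs, endothelial-like nuclei 13.5% and 54.2% of Il1r1 UMIs, and nuclei without a class 36.3% and 51.7% of Il33 UMIs.

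Il1r1 was also higher in glutamatergic neuron-like nuclei of infarcted tissue, at a much lower level. It was at 6.30 and 4.66 CPM in Sham (20 and 13 UMIs), 3.60 and 5.03 CPM in MCAO contra (14 and 11 UMIs), and 12.1 and 24.9 CPM in MCAO ipsi (44 and 48 UMIs). Both infarcted values were the highest of the 6, but the interval of mMCAO ipsi (from 8.82) overlapped with those of Sham L (up to 9.73) and sMCAO contra (up to 8.99). The fitted log2 differences were 1.57 ± 0.37 from Sham and 2.09 ± 0.39 from MCAO contra. The endothelial marker list in these nuclei was at 16.0 to 22.3 CPM over the 6 libraries and did not separate the groups. Thinned to 1000 UMIs, 3.03% of these nuclei had an Il1r1 UMI in sMCAO ipsi and 0.128% to 0.772% in the other libraries, mMCAO ipsi (0.402%) included. Medium spiny neuron-like and other GABAergic neuron-like nuclei were at most at 5.22 CPM. All neuronal classes together, neurons without an assigned subtype included, held 145 and 110 Il1r1 UMIs in mMCAO ipsi and sMCAO ipsi. Glutamatergic neuron-like nuclei held 44 and 48 of these, so that most neuronal Il1r1 UMIs of the infarcts lay in other neuronal classes. The values do not show a change particular to glutamatergic neuron-like nuclei.

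Il1b and its antagonist Il1rn were close to the limit of detection. Myeloid-like nuclei held 0 Il1b UMIs in the Sham and contralateral libraries, 1 in mMCAO ipsi and 10 in sMCAO ipsi (4.21 CPM). The ratio between the infarcts was 6.55 with an interval of 0.932 to 284. Il1rn was absent from these nuclei in Sham, had 0 and 1 UMIs on the contralateral side and 2 and 18 UMIs (1.29 and 7.58 CPM) in the moderate and severe infarct, a ratio of 5.89 between the infarcts (interval 1.41 to 52.4). Most UMIs of both genes in myeloid-like nuclei thus came from the severe infarct, on counts that allow wide ratios. The severe infarct also had the most myeloid-like nuclei (1693). With UMIs pooled, the exact lower limits of the ratio of MCAO ipsi to Sham were 0.054 for Il1b and 0.106 for Il1rn. Against MCAO contra they were 0.316 and 0.403. Differences of the infarcts from the other groups were therefore not resolved for either gene. Myeloid-like nuclei held 10 of the 17 Il1b UMIs and 18 of the 31 Il1rn UMIs of the severe infarct. Neutrophils are a known source of both, and the neutrophil list was at 41.8 and 78.3 CPM in the myeloid-like nuclei of the infarcts. Camp, Ngp and Retnlg were at 0 in every library, so that the list's UMIs came from among S100a8, S100a9, Csf3r, Cxcr2 and Mmp8. The part of neutrophils in the Il1b and Il1rn counts was not tested.

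The other genes of the pathway were read from 6 lists holding 83 genes that are not members. Of these, 37 could be tested in at least 1 class, giving 151 pairs of gene and class. By edgeR's quasi-likelihood test on UMIs summed per class and library, with Benjamini-Hochberg adjustment over all genes of a class, an adjusted p under 0.05 and a log2 change of at least 0.6, 6 pairs were called between MCAO ipsi and Sham, 2 higher and 4 lower. That is 3.97% of the pairs, beside 3.84% of all pairs of gene and class (1.81% higher and 2.02% lower), so that the lists as a whole lay at the background. An unadjusted p under 0.05 was reached by 33 of the 151 pairs, beside 13110 of all 66324 pairs of gene and class. DESeq2 called 3 of the pathway pairs, and its calls over all genes were not counted.

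By role, 0 of 5 pairs were called among ligands and binding proteins, 4 of 10 (all lower) among receptors and co-receptors, 0 of 54 among adaptors and kinases, 0 of 40 in the NF-κB list, 2 of 35 (both higher) in processing and release, and 0 of 7 among targets. The median log2 change over all 151 pairs was 0.21, beside 0.02 over all pairs tested. By class, it was 1.45 over the 23 pairs of myeloid-like nuclei, beside 0.196 over all genes of that class. In the other classes it ran from −0.07 to 0.38. No gene at all was called in myeloid-like or endothelial-like nuclei, of 6378 and 3378 tested, although 1497 and 383 had an unadjusted p under 0.05.

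The 4 lower pairs were all Il1rapl2, a synaptic relative of the co-receptor that does not act in the classical IL-1 signal. It fell in OPC-like nuclei (log2 change −2.28 ± 0.39 SE, edgeR adjusted p = 0.000867), astrocyte-like nuclei (−3.22 ± 0.56, edgeR adjusted p = 0.0109), oligodendrocyte-like nuclei (−3.00 ± 0.63, edgeR adjusted p = 0.0452) and ependymal-like nuclei (−4.41 ± 0.75, edgeR adjusted p = 0.00175). In astrocyte-like nuclei it was at 294 and 312 CPM in Sham, 207 and 382 CPM in MCAO contra and 61.6 and 13.1 CPM in MCAO ipsi. DESeq2 kept the calls in astrocyte-like and ependymal-like nuclei and lost those in OPC-like and oligodendrocyte-like nuclei, whereas a stricter marker gate did the reverse. In ependymal-like nuclei the 2 Sham libraries were themselves far apart, at 1181 and 129 CPM (43 and 4 UMIs).

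Il1rapl2 was at 472 to 661 CPM in glutamatergic, 690 to 1066 CPM in other GABAergic and 116 to 448 CPM in medium spiny neuron-like nuclei. Astrocyte-like and oligodendrocyte-like nuclei lay below the glutamatergic and other GABAergic ranges in every library. OPC-like and ependymal-like nuclei of Sham L, at 728 and 1181 CPM, lay above the glutamatergic range. The glutamatergic neuron list in astrocyte-like nuclei moved the same way as Il1rapl2, from 903 and 924 CPM in Sham to 604 and 508 CPM in MCAO contra and 404 and 161 CPM in MCAO ipsi. It also went from 704 and 794 CPM in Sham to 361 and 107 CPM in MCAO ipsi in oligodendrocyte-like nuclei. The part of neuronal transcripts in the Il1rapl2 result was not tested.

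Of the higher pairs, Casp4, which encodes an inflammatory caspase, rose in astrocyte-like nuclei (log2 change 4.37 ± 0.79 SE, edgeR adjusted p = 0.0124), from 1 and 0 UMIs in Sham and 5 and 7 in MCAO contra to 40 and 74 in MCAO ipsi. DESeq2 did not call it in this comparison or against MCAO contra. The calls between MCAO ipsi and Sham rested on few libraries: 0 pairs were called without Sham L, 2 without Sham R and 36 without mMCAO ipsi.

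Between MCAO ipsi and MCAO contra 3 of 151 pairs were called (1.99%, beside 1.39% of all pairs, 0.902% higher and 0.489% lower), 2 higher and 1 lower. Among them, in astrocyte-like nuclei, Il1rapl2 was lower (−3.13 ± 0.54, edgeR adjusted p = 0.0112) and Casp4 higher (1.80 ± 0.44, edgeR adjusted p = 0.0399). A stricter marker gate lost both calls. Both hemispheres of a severity were taken from 1 pool of rats, and a fit with that pool as replicate block called 6 pairs. The count was 29 without mMCAO ipsi, and 1 without either contralateral library. Between MCAO contra and Sham edgeR called 0 pairs (0.0422% of all pairs), DESeq2 called 0, and 2 were called with the replicate block. In this comparison 20 of the 151 pairs had an unadjusted p under 0.05, beside 6161 of all 66324 pairs. The 3 comparisons share libraries, so that their calls are not independent.

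Some other ligands and a target are given as values. Il18, a microglial cytokine of the family, was at 26.3 and 193 CPM in myeloid-like nuclei of Sham (1 and 9 UMIs), 291 and 245 CPM in MCAO contra, and 282 and 353 CPM in MCAO ipsi, and was not called. Il1a, the second agonist of the IL-1 receptor, was at 0 in these nuclei in Sham, at 3.59 and 27.8 CPM in MCAO contra (1 and 6 UMIs) and at 11.6 and 6.31 CPM in MCAO ipsi (18 and 15 UMIs), so that the infarcted hemispheres lay between the contralateral ones. Ccl2, a chemokine induced by IL-1, had 13 UMIs in astrocyte-like nuclei of mMCAO ipsi and 236 in sMCAO ipsi, and 0 in the other 4 libraries. The filter on low counts left Il1a and Ccl2 out of the test in these classes. Without that filter, and also without mMCAO ipsi, Ccl2 was called against Sham and against MCAO contra, and Il18 against Sham. These 3 genes were chosen after their values were seen.

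The genes whose levels were most like those of a member were sought over 60 sums of class and library, by Pearson's r of log2(CPM + 5) among 12557 genes. For Il33 they were Ccnd1 (r = 0.697), Mms22l (0.671) and Kif18b (0.668), which are genes of the cell cycle and DNA replication. For Il1rl1 they were the microglial gene Tmem119 (0.812), Slc15a3 (0.795) and Plcb2 (0.794). Il1rap was most like Ankrd28 (0.791), Olig1 (0.770) and Gal3st1 (0.755), and Il1r1 like Fzd6 (0.917), Ifitm3 (0.904) and Tmod3 (0.894). The points share libraries and differ in depth, and the values describe the pattern over classes as much as that over groups.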

How the data were processed

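Single nuclei of 6 rat brain libraries were measured with a 5′ droplet kit, and per the labels the reads were processed with Cell Ranger 7.0.0 on mRatBN7.2. The authors deposited raw UMI counts per gene and nucleus (33012945 to 52513380 UMIs a library). Nuclei with at least 500 UMIs, 250 to 5000 genes and at most 5% mitochondrial UMIs were kept. Each was thinned to at most 1000 UMIs and scored on 11 marker lists. The score was the standardised excess of the number of detected markers over its expected number. A non-neuronal class needed a score of at least 3, 2 or more above every other list, with UMIs of 3 or more markers. Nuclei without such a score (all below 2) and with neuronal markers were neurons, split by subtype at a score and gap of 1. Doublets were not called with a separate tool, and ambient RNA was not removed. The score gap was set against mixed profiles, but how many it left out was not tested. Markers of other cell types remained in the classes, as given above. The members and lists were chosen with earlier results of these data known.

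UMIs were summed per class and library, and 9 classes with at least 20 nuclei in every library were fitted across all genes with edgeR 4.0.16 (filterByExpr, TMM, quasi-likelihood, all 6 libraries) in R 4.3.3, with DESeq2 1.42.0 as an alternative. The SE of a fitted log2 difference was not estimated on its own. It is the absolute difference divided by the square root of the edgeR F statistic, so that it restates that statistic. Its spread is shared by all 6 libraries. Scripts ran in Python 3.11.15 with NumPy 2.4.6, SciPy 1.17.1 and pandas 2.3.3, and the fits were tested on simulated data. Intervals are exact Poisson for levels, exact conditional for ratios and Clopper-Pearson for shares. For a share of 0 the limit given is 3 counts over the nuclei, which is below the Clopper-Pearson limit. For a level of 0 the limit given is the exact Poisson one. Genes were named by a rule: all members, pathway genes called between MCAO ipsi and Sham, and the 3 genes most like each member with at least 50 UMIs. A called gene that the rule would name is not reported here. Libraries pool rats and the Sham libraries come from the same rats, so p-values measure only the spread between these libraries. Contra and ipsi libraries of 1 severity come from the same rats by the study's methods, which pairs them. Their deviations from the group means were correlated at −0.27 to 0.0368 over the classes. An exact permutation test of 2 against 2 libraries cannot go below p = 0.333, and none was run.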

Additional observations from a re-analysis of the deposited data

Results flagged for a closer look

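Nuclei that the marker gate put in no class were outside the comparisons above, and 3 members stood there above the Sham libraries in both infarcted hemispheres. Il33 was at 2.32 CPM in mMCAO ipsi (57 UMIs in 40 nuclei, interval 1.76 to 3.01) and 9.58 CPM in sMCAO ipsi (152 UMIs in 74 nuclei, interval 8.12 to 11.2), where the highest upper bound in Sham was 0.712 CPM. Il1rap was at 80.9 CPM (interval 77.4 to 84.5) and 106.7 CPM (interval 101.6 to 111.9), against an upper bound of 64.9 CPM in Sham. Il1r1 was at 18.9 CPM (interval 17.3 to 20.7) and 32.7 CPM (interval 30.0 to 35.7), against 4.66 CPM.

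These nuclei held 36.3% and 51.7% of the Il33 UMIs of mMCAO ipsi and sMCAO ipsi, so that the class values above leave out much of the Il33 signal. The OPC list was the highest scoring list in 17 of the 40 (42.5%) and 33 of the 74 (44.6%) unassigned nuclei with an Il33 UMI, and in 21.3% and 19.4% of all unassigned nuclei of these libraries. Their profiles passed no gate, and their cell type was not assigned.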

How the results depend on the processing

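The count of 6 pathway pairs between MCAO ipsi and Sham was 3 by DESeq2, 34 without a filter on low counts and 11 with a looser gate, and 0 to 36 when 1 library was left out. The 3 pairs between MCAO ipsi and MCAO contra became 25 without the filter, 6 with the replicate block and 1 with a stricter gate, and 1 to 29 with 1 library left out. The 0 pairs between MCAO contra and Sham became 1 with size factors of the DESeq2 kind, 3 without the filter and 2 with the replicate block, and 0 to 3 with 1 library left out. The replicate block changed no other count by more than 1.5 times. Leaving out 1 library moved the log2 differences between MCAO ipsi and Sham over 3.91 to 8.005 for Il33 in OPC-like nuclei, 2.08 to 2.80, 1.63 to 1.87 and 0.85 to 1.15 for Il1rap in OPC-like, astrocyte-like and oligodendrocyte-like nuclei, and 1.27 to 3.50 and 1.08 to 2.04 for Il1r1 in endothelial-like and glutamatergic neuron-like nuclei. A stricter gate gave 5.98 for Il33 in OPC-like nuclei and a ratio of 1.43 between the severities for Il1rap there, and leaving out the deepest 5% of nuclei gave 3.38 for Il1r1 in endothelial-like nuclei. With the stricter gate the thinned share of Il33 nuclei with a cell cycle UMI went from 66.7% to 100% in mMCAO ipsi (3 of 3 nuclei, interval 29.2 to 100). In sMCAO ipsi it went from 55.0% to 25% (2 of 8 nuclei, interval 3.19 to 65.1). There it turned from above to below the share in nuclei without Il33 (42.7% and 36.1%). The intervals overlapped under both gates, so that no reversal was resolved. No log2 difference or ratio listed here changed sign or side of 1. The cause of these shifts was not tested, apart from the number of genes or libraries that an alternative removes. Sham held 235 OPC-like and 116 endothelial-like nuclei in all, which limits every comparison with it, and Il33, Il1rl1, Il1b and Il1rn had at most 4 UMIs in any tested class of a Sham library.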

Other observations

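Il18r1 and Il18rap, which encode the receptor chains for IL-18, were read in the myeloid-like nuclei. Il18r1 was at 0 and 21.4 CPM in Sham L and Sham R (0 and 1 UMI), 3.59 and 4.63 CPM in mMCAO contra and sMCAO contra (1 UMI each), and 15.4 and 17.3 CPM in mMCAO ipsi and sMCAO ipsi (24 and 41 UMIs). Il18rap was at 0 in both Sham libraries, 14.3 and 13.9 CPM in MCAO contra (4 and 3 UMIs), and 9.64 and 18.9 CPM in MCAO ipsi (15 and 45 UMIs), so that the hemispheres of MCAO overlapped. These genes were chosen after their values were seen, and no test is given.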
